A study of Homo sapiens with 6 samples.

Results

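The open chromatin of 22Rv1 cells at the 0 h point of a FOXA1 degradation experiment was described from the 2 libraries labelled FOXA1_dTAG_0h, out of 6 libraries in the series. A region was kept where both libraries held a peak, with an overlap of at least 1 bp, on the autosomes and X. This gave 100769 shared regions of the 137810 regions with a peak in either library (73.1%). ATAC-seq was used, in which a transposase inserts sequencing adapters into accessible DNA. 22Rv1 is an established human prostate carcinoma line, grown here in serum-containing medium. Both libraries carry the treatment label FOXA1_dTAG,0h, so the tag on FOXA1 is common to them. The labels name neither the degrader nor its dose, nor whether the tagged cells are 1 clone. They also leave unstated if both replicates are cultures of their own, and a difference between the 2 libraries may therefore be technical. Neither the level of FOXA1 nor the labelled cell type was checked against marker loci, since gene positions in hg19, the build of the files, were not used here.

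Accessible sites are mainly promoters, enhancers and sites bound by CTCF, where nucleosomes are displaced by transcription factors. FOXA1 is a forkhead pioneer factor of luminal prostate cells: it binds its motif on nucleosomal DNA and opens sites for the androgen receptor and other factors. Most FOXA1 sites are known to lie at distal enhancers, which often occur in groups along a chromosome. The width, height and spacing of peaks describe this starting landscape, but they do not tell promoters from enhancers.

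The libraries held 118259 peaks (0h replicate 1) and 125396 peaks (0h replicate 2) on the autosomes and X, which covered 58.5 and 49.0 Mb. The strength of a peak was its deposited fold, the ratio of the pileup of tags at the summit over the local background, and it was ranked as a percentile within each library (100 is the strongest). The strength of a shared region was the mean of its percentiles in both libraries. The fold and p-value together gave back the pileup and the background of every peak. The lowest background, divided by the shortest peak, gave a relative depth of 10.4 and 8.25 tags per kb, and the shortest peaks were 155 and 111 bp. Replicate 1 was thus deeper and had the wider peaks, while replicate 2 had the longer list. The lists were not copies of each other, since 12 peaks had identical ends in both.

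Strong peaks were found in both libraries and weak ones often in 1. In replicate 1, 85.6% of peaks met a peak of replicate 2, and 84.1% of the peaks of replicate 2 met one of replicate 1 (84.8% ± 1.05, SD, n = 2). The peaks of each library were cut by fold into 10 steps of equal size, from the weakest to the strongest. The shared part was 55.7% ± 0.0896 in step 1, 70.4% ± 4.71 in step 3, 89.3% ± 4.50 in step 5 and 98.9% ± 0.516 in step 7 (SD, n = 2). In step 10, with folds from 11.98 in replicate 1 and 13.1 in replicate 2, every peak of each library met a peak of the other. The 17070 and 19971 peaks of 1 library alone had median fold percentiles of 16.8 and 18.1, and median widths of 210 and 137 bp. Since a region had to be called in both libraries, strong peaks make up a larger share of the shared set than of either list. This difference follows from the selection.

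**Figure D1:**
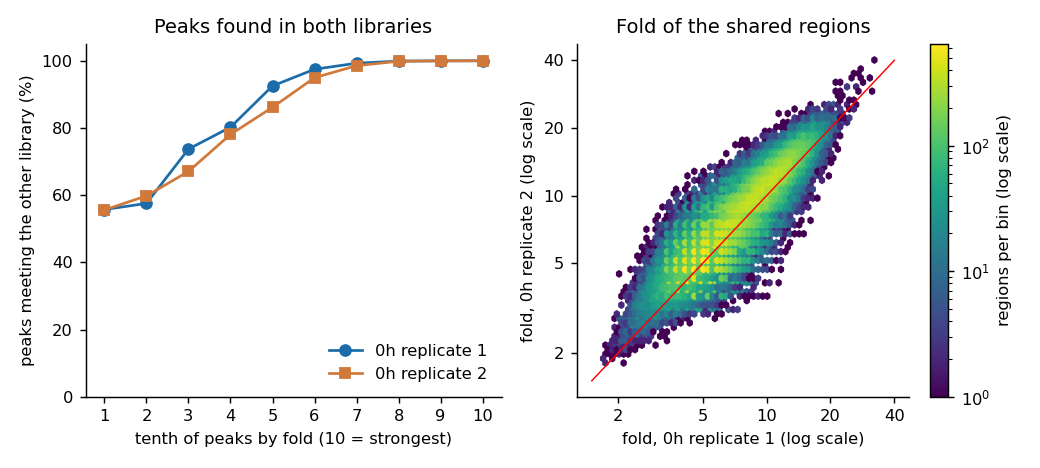
Left, the share of peaks of each 0 h library that met a peak of the other, in 10 steps of fold within the library; it goes from about 55.7% in the weakest step to all peaks in the strongest. Right, the fold of the 100769 shared regions in both libraries on log scales, coloured by the number of regions per bin, with the line of equal values in red.

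The rank of a shared region was similar in both libraries but not exact. Over the 100769 regions, Spearman's rho between the percentiles of fold was 0.86 and Pearson's r 0.85, given as a description, since regions of a library share its depth and fragment length. For the pileup at the summit rho was 0.93, and for the local background 0.95. A region's percentiles differed by a median of 8.22 points, and 57.5% of regions were within 10 points. Of the 1008 strongest regions (1%) by each library, 473 were the same (46.9% of each list), and of the 10077 strongest (10%), 7035 were the same (69.8%). The median distance between the summits in the 2 libraries was 43 bp, and 83.4% of regions had summits within 100 bp.

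A total of 350 regions differed by over 50 percentile points. The 5 least alike were all stronger in replicate 1. At 11:18807604-18808006 the fold was 10.04 in replicate 1 and 3.65 in replicate 2, from pileups of 26 and 6 tags. At 5:113483991-113484227 the fold was 11.5 and 4.18, from pileups of 29 and 7. The remaining ones, 6:111128428-111128851, 4:143946259-143947010 and 3:179691790-179692218, had folds of 9.16 to 9.51 in replicate 1 and 3.65 in replicate 2, where each summit held 6 tags. These regions rest on few tags in replicate 2 and lie at or close to the lowest background in both libraries.

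Most shared regions were narrow. The median peak width was 436 bp in replicate 1 and 339 bp in replicate 2 (388 ± 68.6, SD, n = 2), the lower quartile 294 and 212 bp, and the upper quartile 673 and 567 bp. Widths of at least 1000 bp were found for 10.6% and 7.83% of regions, and for 7388 regions in both libraries. Only 95 regions reached 2000 bp in both. The shared regions together covered 57.5 Mb. Replicate 1 had the wider peak in 78.5% of regions, with a median ratio of 1.204, and it also had the longer minimum width of a peak. The summit lay near the middle, at a median of 48.9% and 48.6% of the width from the start of the peak.

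In 95984 regions (95.3%) a single peak of one library met a single peak of the other. In 4368 regions 1 peak of replicate 1 met 2 or more peaks of replicate 2, while the reverse was seen in 355. A stretch called as 1 open region in replicate 1 was thus more often split in replicate 2, the library with the shorter minimum peak width, with up to 4 peaks of a library in a region.

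Width and strength rose together only up to a point. The median width was 270 and 195 bp in the weakest of 10 steps of strength, 400 and 307 bp in step 5, and 684 and 588 bp in step 9. In step 10 it was 668 and 585 bp, and it went on falling at the very top, to 599 and 504 bp in the 1000 strongest regions, 488 and 394 bp in the 100 strongest, and 404 and 315 bp in the 10 strongest. Both libraries gave the same order. No region among the 100 strongest reached 1000 bp in either library, compared with 23.6% and 17.8% of regions in step 9.

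Read by width, strength by fold was highest at intermediate widths. Regions under 200 bp had median fold percentiles of 25.8 and 30.5, those of 800 to 1000 bp 81.8 and 82.2, and those of at least 2000 bp 50.8 and 57.97. The pileup at the summit did not turn: its median was 13 and 10 tags under 200 bp, 68 and 49 at 800 to 1000 bp, and 106 and 78 in the 149 regions of at least 2000 bp. The median −log10 q was 43.8 and 35.4 at 800 to 1000 bp, and highest at 1000 to 1500 bp (55.8 and 45.2). At 2000 bp and above the median −log10 q was 47.0 and 38.7. The local background moved with width too, from 1.00 times the library's lowest background in the narrowest regions to 3.41 and 3.61 times at 800 to 1000 bp, and 9.24 and 10.0 times at 2000 bp and above. A fold is divided by this background, and its part in the lower folds of broad regions was not tested.

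**Figure D2:**
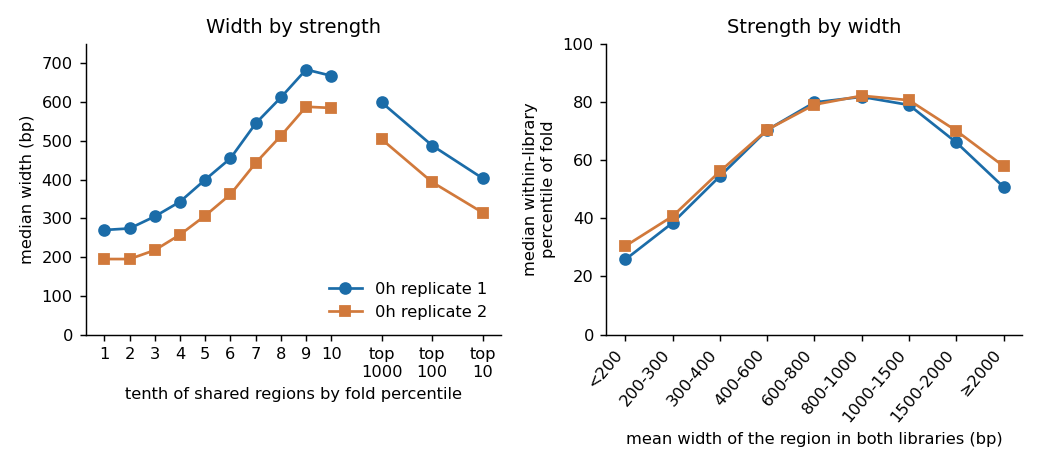
Left, the median width of shared regions in each 0 h library in 10 steps of strength and for the 1000, 100 and 10 strongest regions; width is highest in step 9 and lower at the very top. Right, the median within-library percentile of fold by the mean width of the region; it is highest at 800 to 1000 bp.

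The broadest regions had high pileups over a high local background. The broadest, 6:58776267-58779502, was 3231 and 3229 bp wide with folds of 3.76 and 3.68, and the background was 25.3 and 28.0 times the lowest. It bordered a stretch of 3132 kb without any shared region. The second, 2:10151293-10154400, was 3108 and 3038 bp wide with folds of 3.43 and 3.83 and pileups of 167 and 120 tags. The third, 1:149812171-149815005, was 2816 and 2825 bp wide with folds of 4.90 and 4.91, at summits 966 bp apart. The region 8:70744704-70747509 was 2806 and 2754 bp wide with folds of 5.24 and 5.94, at summits 1593 bp apart. The region 3:143689753-143692772 was 2991 bp wide in replicate 1 and was called as 2 peaks in replicate 2. None of the 5 was above the 43.5th percentile in either library, while their pileups, of 68 tags or more, exceeded the median of 25 and 19 tags over all shared regions.

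The strongest region of each library was the same, 13:110076373-110076775. Its fold was 32.2 in replicate 1 and 40.1 in replicate 2, from pileups of 169 and 159 tags, its peaks were 403 and 323 bp wide, and the summits lay 12 bp apart. The second, 11:85194915-85195331, had folds of 31.2 and 33.5 and widths of 417 and 355 bp. The third, 5:71146642-71147045, had folds of 27.4 and 36.4 and widths of 404 and 324 bp. The median fold over all shared regions was 6.88 and 7.62.

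The next regions by strength were 8:70602222-70602706 (folds of 28.8 and 32.6), 10:98561264-98561623 (27.4 and 33.2), 3:196625562-196625848 (26.6 and 34.7) and 12:20704267-20704590 (25.98 and 35.0). They were followed by 9:44245212-44245851 (32.2 and 29.1), 17:33478027-33478395 (26.4 and 30.8) and 9:79186551-79187041 (26.9 and 29.9). Apart from 9:44245212-44245851, which was 573 bp wide in replicate 1 and was called as 2 peaks in replicate 2, these were 205 to 491 bp wide. In 9 of the 10 strongest regions replicate 2 had the higher fold, the exception being 9:44245212-44245851. The 10 strongest lay on 9 chromosomes, and the nearest shared region was between 4.72 kb (at 8:70602222-70602706) and 58.6 kb (at 12:20704267-20704590) away.

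Another measure of strength gave another order. By the lower of both percentiles of fold, 9 of the 10 strongest were again among the 10 highest. By −log10 q, 4 of them were, and by the pileup of tags none was, although 8 and 3 of them were among the 100 highest by these measures. The 10 regions strongest by fold are therefore not the sites with the most tags. Their median pileup, 129 and 107 tags, was still above the 25 and 19 tags over all shared regions. Their median background was 2.39 and 2.79 times the lowest, compared with 1.49 times in both libraries over all shared regions.

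Shared regions occurred at 34.1 per Mb of the spanned chromosomes. The median gap from one to the next was 14.4 kb, with quartiles of 5.78 and 33.0 kb. Gaps of at most 10 kb made up 39.2% of the 100746 gaps, and gaps of at most 100 kb 95.2%. In the full lists of the libraries the median gap was 12.4 and 11.6 kb. Of the 21 gaps of at least 1 Mb, 19 were at least 3 Mb long, and these lay on 19 different chromosomes, 1 on each. The longest were 1:121485440-142535668 (21.1 Mb), 9:47266304-65537041 (18.3 Mb), 16:35284205-46386420 (11.1 Mb), 10:39150653-42355462 (3.20 Mb) and 18:15330474-18511041 (3.18 Mb). The first 3 held no peak of either library, and the other 2 held 1 peak each, in replicate 1. Positions of centromeres and of unknown bases in hg19 were not used here.

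The distribution of gaps was not smooth. There were 7531 gaps of under 1 kb, and the number per 1 kb step fell to 3207 gaps of 3 to 4 kb, rose to 4071 gaps of 5 to 6 kb and then fell steadily to 1585 gaps of 19 to 20 kb. The same dip was present in each full list, with 4178 and 4092 gaps of 3 to 4 kb and 5201 and 5180 gaps of 5 to 6 kb in replicates 1 and 2. The number of gaps of under 1 kb differed more between the lists, with 10591 in replicate 1 and 15464 in replicate 2. Both lists were called with MACS2, so a dip in both cannot tell a trait of the chromatin from one of the calling. Strength by fold changed at the same distance. Regions whose nearest neighbour lay 3 to 4 kb away had a median mean percentile of fold of 49.7, and those with the nearest neighbour 5 to 6 kb away 65.9, after which it stayed between 64.0 and 66.5 up to 20 kb. The folds were 6.11 and 6.79 against 7.83 and 8.65 in replicates 1 and 2. The share of regions in the strongest 10% was 2.45% against 12.9%.

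The height of the peaks did not change in this way. The median pileup in replicate 1 was 28 tags at 3 to 4 kb and 25 tags at 5 to 6 kb, whereas the local background went from 2.17 to 1.38 times the lowest. A peak close to another one was therefore weak by fold while holding as many tags. The part of the background in this step, and in the dip in the number of gaps, was not tested.

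**Figure D3:**
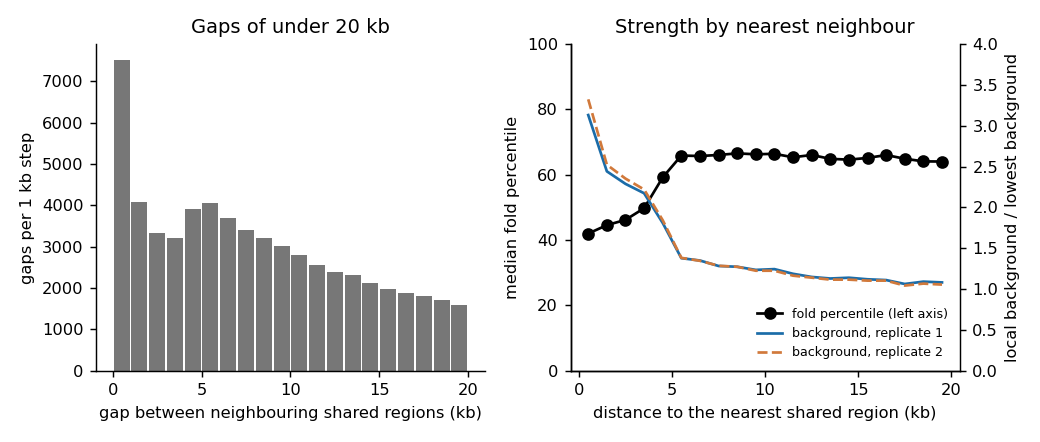
Left, the number of gaps between neighbouring shared regions per 1 kb step, with a dip at 3 to 4 kb (3207 gaps) and a second rise at 5 to 6 kb (4071). Right, the median over regions of the mean fold percentile (points, left axis) and the median local background over the lowest background in each library (lines, right axis) by distance to the nearest shared region.

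Taken over all pairs of a gap class, neighbouring regions did not resemble each other in strength. For gaps of 5 to 10 kb, Spearman's rho between the mean percentiles of neighbours was 0.040 over 17411 pairs, and for gaps of under 1 kb it was −0.13 over 7531 pairs, both as descriptions. Such pooled values do not show single stretches: of the 2061 dense clusters described below, 57 had a median percentile under 10. Isolated regions were narrower: with the nearest region at least 100 kb away, the 839 regions had median widths of 362 and 279 bp, against 477 and 378 bp for those at 5 to 10 kb. Their median folds were 7.25 and 7.83, against 7.92 and 8.65 at 5 to 10 kb and 6.88 and 7.62 over all shared regions. The median of the mean percentile was 66.1 at 5 to 10 kb, 65.4 at 10 to 20 kb, 63.4 at 20 to 50 kb, 59.6 at 50 to 100 kb and 58.0 beyond.

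When regions with gaps of at most 10 kb were joined, 39813 regions (39.5%) stood alone and 47687 (47.3%) fell into groups of 2 to 4. The other 13269 regions (13.2%) formed 2061 dense clusters of at least 5 regions, with a median length of 24.8 kb and 55.8 Mb of sequence in all. Such joining is the usual first step in the search for large enhancers, but here it used positions only. Clusters of at least 10 regions numbered 163, and 29 held at least 15. The number depended on the settings. It was 373 with joining at 5 kb and 5093 at 20 kb, 3101 and 3529 in the full lists of replicates 1 and 2, and 1178 and 387 with peaks kept from a −log10 q of 5 and 10. With an overlap of 50% of each peak it was 1301, and without regions under the 10th percentile in either library, a choice made after seeing the data, 1222.

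Regions in clusters were weaker by fold and taller by pileup than regions that stood alone. The median mean percentile of fold was 64.0 for regions alone, 55.3 in groups of 2 to 4, 49.0 in clusters of 5 to 9, 38.7 in clusters of 10 to 14 and 11.2 in clusters of 15 or more. The median pileup ran the other way, with 21 and 16 tags for regions alone and 70 and 48 tags in the largest clusters, and so did the local background, with 1.03 and 1.02 against 10.2 and 11.1 times the lowest. By −log10 q the medians were 14.1 and 13.1 for regions alone and 15.4 and 13.8 in clusters of at least 5. In clusters of 15 or more they were 15.1 and 12.1. By fold, the strongest 10% made up 14.2% of regions alone and 5.12% of regions in clusters of at least 5. A region of the strongest 10% was present in 584 of the 2061 clusters (28.3%).

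The clusters with the most regions were compact and weak by fold. The largest, 4:49093913-49164097, held 35 regions in 70.2 kb with a median percentile of 2.41. The second, X:114959729-115015234, held 32 regions in 55.5 kb with a median percentile of 3.38. They were followed by 4:49261127-49337649 (27 regions, 9.70), 10:42355463-42409364 (27 regions, 2.21) and 2:92268116-92325904 (26 regions, 4.88). Both libraries placed them low, with median percentiles of 1.60 to 9.12 in replicate 1 and 1.81 to 9.28 in replicate 2. The median background in these 5 clusters was between 12.4 and 28.0 times the lowest, and none held a region of the strongest 10%. Of these, 4 lay within 1 Mb of a gap of at least 1 Mb; the cluster on X did not.

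Clusters next to long gaps were 55 of the 2061 in all, but 11 of the 29 with at least 15 regions. Without the 1714 regions within 1 Mb of a long gap, chosen after seeing the data, 2006 clusters were found, and the 18 of at least 15 regions away from long gaps still had a median percentile of 21.7 over their 337 regions. After the cluster on X, the next of these by size were 22:46402250-46484163 with 24 regions and a median percentile of 9.63, and 2:132997254-133045538 with 23 regions and 3.19. Then 3 clusters tied at 21 regions: 8:145688219-145754607, 1:161409835-161457644 and 1:228744197-228784155, with median percentiles of 16.4, 1.02 and 0.185. The background in these 5 was between 9.42 and 33.4 times the lowest. Mappability and repeats were not examined.

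The longest clusters included stronger regions. The longest, 12:52499791-52592037, held 18 regions over 92.2 kb with a median percentile of 32.8. The next, 3:133129363-133218379, held 12 regions over 89.0 kb with a median percentile of 73.8, of which 3 belonged to the strongest 10%. X:130880183-130965194 held 14 regions over 85.0 kb (median percentile 69.5) and 1:181053294-181136085 held 15 over 82.8 kb (64.3). The fifth, 22:46402250-46484163, was weak, as given above. Peaks of the single libraries in these clusters numbered 12 to 25 in replicate 1 and 14 to 27 in replicate 2.

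A few clusters were made up mainly of strong regions. They were picked for this after their values were seen, and this is a description. In 5:140070248-140106286, 4 of 5 regions belonged to the strongest 10% and the median width was 1044 bp. In 22:38053818-38093233 it was 4 of 6. Another 11 clusters held 3 such regions. Among them, in 12:47764182-47791772 it was 3 of 5, and the median width there was 407 bp. The median background of the 3 clusters named was 1.54 to 3.18 times the lowest in either library. It was far below that of the clusters with the most regions, but the median over all regions in dense clusters was 3.04 and 3.19. Since fold is divided by the background, a low background can follow from the pick.

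**Figure D4:**
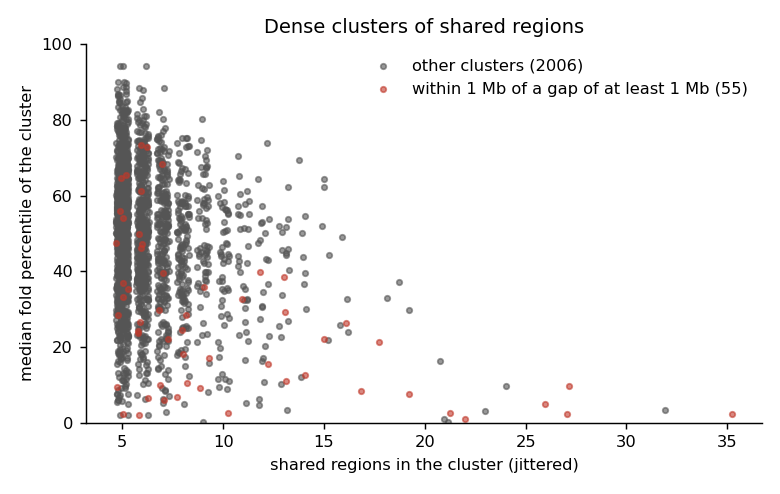
Each point is a dense cluster of at least 5 shared regions, placed by its number of regions and the median fold percentile of its regions. The 55 clusters within 1 Mb of a gap of at least 1 Mb are red, and the clusters with more than 20 regions all lie at low percentiles.

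In windows of 1 Mb, shared regions were unevenly spread. The 2888 windows with at least 1 region held a median of 32, with quartiles of 20 and 47. The densest 10% (289 windows) held 20.7% of all shared regions. They took in 6 of the 21 windows with exactly 60 regions, by chromosome order, and with all 304 windows of 60 or more the share was 21.6%. The sparsest 10% held 2.56%, with 13 regions or fewer per window. Peak counts per window ranked nearly alike in the 2 libraries (Spearman's rho 0.98 over 2888 windows, as a description). Windows next to each other resembled one another (rho 0.53 over 2846 pairs). Of the 289 densest, 168 adjoined another of them (181 of the 304), and the longest runs in either set were 19:45-52 Mb with 617 regions and 1:201-208 Mb with 550.

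The densest window was 19:1000001-2000000 with 117 shared regions, from 126 peaks in replicate 1 and 130 in replicate 2. It was followed by 19:49000001-50000000 with 107, from 113 and 123 peaks, and by 4:49000001-50000000 with 102, from 121 and 132 peaks. These windows differed in kind. The regions of both windows of chromosome 19 had median percentiles of 44.7 and 66.3 and median widths of 469 and 468 bp. Those of the window on chromosome 4 had a median percentile of 6.25 and a median width of 277 bp. In dense clusters lay 83 of its 102 regions, against 64 of 117 and 61 of 107 in the windows of chromosome 19.

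The other 7 of the 10 densest windows were nearer in median percentile to those of chromosome 19 than to the window on chromosome 4. They were 1:156000001-157000000 with 101 regions, 1:151000001-152000000 and 5:148000001-149000000 with 99 each, 11:65000001-66000000 with 96, 19:18000001-19000000 with 95, and 12:54000001-55000000 and 19:47000001-48000000 with 93 each. The window 20:61000001-62000000 also held 93, and was left out by chromosome order. The median percentiles of the 7 ranged from 43.7 to 58.9, and that of 20:61000001-62000000 was 41.1. The median widths of the 7 ranged from 380.5 bp in 5:148000001-149000000 to 558 bp in 11:65000001-66000000, the highest among the 10 windows. In single libraries, 8 of the 10 windows were among the 10 with the most peaks in replicate 1, and 8 in replicate 2, and none ranked lower than the 16th.

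Regions in dense windows were wider but not stronger by fold. From the sparsest to the densest 10% of windows the median width went from 359 to 489 bp in replicate 1 and from 279 to 388 bp in replicate 2. The share of regions of at least 1000 bp went from 4.74% to 14.6% in replicate 1 and from 2.68% to 10.9% in replicate 2. The median mean percentile of fold was 55.3 at both ends and at most 58.9 in between. The median pileup went from 18 to 35 tags in replicate 1, together with the background, which went from 1.00 to 2.53 times the lowest. By −log10 q the regions of dense windows were stronger, with medians from 10.9 to 17.2 in replicate 1 and from 9.51 to 15.7 in replicate 2. Across the 2735 windows of at least 10 regions, rho between the number of regions and the median width was 0.45, and between the number and the median percentile −0.020, both as descriptions.

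Chromosomes differed in how many shared regions they held. Chromosome 19, known as the most gene-dense human chromosome, had 56.6 shared regions per Mb between its first and last region, chromosome 22 had 50.6 and chromosome 17 had 45.4. The lowest were X with 17.9, chromosome 4 with 27.4 and chromosome 13 with 27.5, and the median of the autosomes was 35.3. These spans take in the long gaps, of 21.1, 18.3 and 11.1 Mb on chromosomes 1, 9 and 16, which lower the density there. In each library's full list chromosome 19 was also the highest, with 62.6 and 67.3 peaks per Mb, and X the lowest, with 21.1 and 22.4. Chromosomes 4 and 13 came next to X in both lists, but in replicate 2 chromosome 13 (34.3) was below chromosome 4 (34.7). Chromosome 19 gave 26 of its 58 windows to the densest 10% (44.8%), chromosome 22 gave 10 of 36 (11 with the tied windows), and X gave 1 of 154.

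The widest regions were on the same 3 chromosomes that were densest. Median widths were 529 and 425 bp on chromosome 19, 471 and 376 bp on 17 and 470 and 370 bp on 22, and lowest on chromosome 4 (402 and 308 bp). The orders differed further down: X, the sparsest chromosome, had widths of 420 and 330 bp. Chromosome 16, with 33.6 regions per Mb over a span that takes in its 11.1 Mb gap, had 455 and 359 bp. On chromosome 19, 26.3% of shared regions lay in dense clusters, on chromosome 17 21.1% and on chromosome 22 18.1%, compared with 5.42% on chromosome 13 and 5.43% on X. The median gap was 9.68 kb on chromosome 19 and 26.7 kb on X.

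The share of the strongest regions by fold did not follow the order of density. The strongest 10% of shared regions made up 13.7% of the regions of X and 13.1% of those of chromosome 19, the sparsest and the densest chromosome, then 11.4% of chromosome 13. The lowest shares were on chromosomes 1 (8.26%), 20 (8.40%) and 8 (8.99%). The median of the mean percentile was highest on chromosome 19 (60.9), with 59.6 on X. By −log10 q the median was also highest on chromosome 19 (19.9 and 18.5), with 13.7 and 11.9 on X, and lowest on chromosome 18 (12.9 and 11.8). The median pileup was 39 and 30 tags on chromosome 19, the highest, and 22 and 17 on X. On X, 50.7% and 50.4% of regions had the lowest background of their library, on chromosome 19 10.95% and 10.5%, and over all shared regions 28.3% and 29.3%. Copy number was not measured, and the part of the background in the count of regions on X was not tested.

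**Figure D5:**
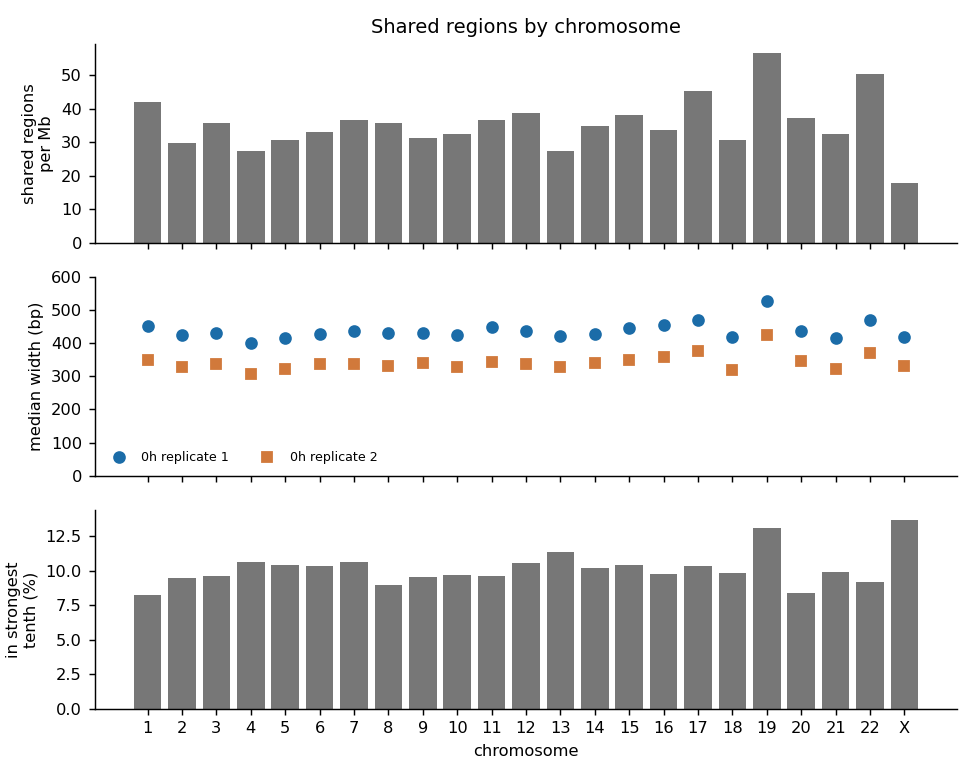
Shared regions per Mb, the median width in each 0 h library and the share of regions in the strongest 10%, by chromosome. Chromosome 19 is highest in density (56.6 per Mb) and width, while X is lowest in density (17.9 per Mb) and highest in the share of the strongest 10% (13.7%).

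The number of protein-coding genes per chromosome, counted in the RefSeq table of GRCh38.p14 with no position taken from it, varied with density and width across the 23 chromosomes. Spearman's rho between genes per Mb of spanned chromosome and shared regions per Mb was 0.80 (Pearson's r 0.84), and 0.80 (0.85) over the 21 autosomes without chromosome 19. Both counts are divided by the same span, and the part of this in these coefficients was not tested. With the median width rho was 0.87 (r 0.97), and 0.86 (0.92) over the same 21 autosomes. With the share of the strongest 10% rho was −0.12 over the 23 chromosomes, but r was 0.28. Over the same 21 autosomes they were −0.26 and −0.25, so the sign of r depended on the chromosomes included. Chromosomes are not replicates, and these coefficients describe the 2 libraries. Counted per gene instead, the order reversed at the top: chromosome 18 had 8.88 shared regions per protein-coding gene, chromosome 13 had 7.80 and chromosome 19 had 2.30, the lowest of all.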

How the data were processed

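ATAC-seq peak lists of the 2 libraries labelled FOXA1_dTAG_0h were used, 1 list per library; the 4 later libraries were not analysed here. The tools listed, per the submitters' processing notes, are MACS2, Bowtie2, fastp and FastQC, and the build is hg19. Versions, read shifting and duplicate removal are not given in the sources used here. Each peak carries the authors' deposited values: a fold (a ratio), a −log10 p and a −log10 q, with a lowest −log10 q of 1.30 in both lists (q of 0.05). Widths are end minus start of the deposited intervals.

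Python 3.11.15 with numpy 2.4.6, pandas 2.3.3, scipy 1.17.1 and matplotlib 3.10.9 was used. Overlapping peaks of both lists were joined (1 bp). In a region, a library's strength is the percentile of its highest fold and its width that of its widest peak. The pileup was recovered by assuming MACS2's Poisson p and a pseudocount of 1, and 100.0% of peaks were matched to 0.001 in −log10 p. The steps were tested on simulated lists. Coordinates are 1-based. Named were the 10 strongest, 5 broadest and 5 least alike regions, the 10 densest windows, the 5 largest and 5 longest clusters, the 5 longest gaps and the extreme chromosomes. The strongest were ranked by mean percentile of fold over both libraries. With 1 group there is no test between groups. The part described, its measures and these rules were chosen with earlier results of these data known. Alternatives were stricter −log10 q, lists of one length, stricter overlap, single libraries and other joining distances and windows. Motifs, sequences and gene annotation need hg19 and were not used here.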

Additional observations from a re-analysis of the deposited data

Results flagged for a closer look

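Peaks outside the autosomes and X were not part of the regions above. Y held 627 peaks in 0h replicate 1 and 684 in 0h replicate 2, which gave 498 shared regions. The median fold of these peaks was 4.96 and 5.48, and the highest 23.8 and 23.5. The mitochondrial genome held 2 and 3 peaks, which gave 2 shared regions, with median folds of 1.58 and 1.43.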

How the results depend on the processing

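No paired analysis was possible because 1 group is described and no result comes from a test. Values follow for the shared regions (100769 as reported), their median width (388 bp), the shared part of a library's peaks (84.8%), rho of strength (0.86), the median gap (14.4 kb), the share of regions in clusters (13.2%), the clusters (2061) and the share in the densest 10% of windows (20.7%). With peaks kept from a −log10 q of 5, the shared part was 86.7%, rho 0.85, the gap 17.7 kb, 9.14% in 1178 clusters and 21.8% in dense windows. From 10, 54537 regions were left, with a width of 560 bp, a shared part of 87.6%, rho 0.83, a gap of 25.1 kb, 4.30% in 387 clusters and 24.0% in dense windows. With lists of one length the dense windows held 20.8%. With an overlap of 50% of the shorter peak, the shared part was 83.3% and dense windows held 20.7%. With 50% of each peak, the shared part was 70.3%, rho 0.87, the gap 16.9 kb, with 9.56% in 1301 clusters and 21.2% in dense windows. Single libraries gave widths of 281 to 388 bp, gaps of 11.6 to 12.4 kb, 17.3% to 18.7% in 3101 to 3529 clusters and 20.01% to 20.05% in dense windows. By −log10 q, rho was 0.89, and between summits the gap was 14.98 kb. Clusters were 373 (2.27% of regions) at 5 kb, 5093 (40.5%) at 20 kb and 163 (2.08%) with at least 10 regions. Windows shifted by 0.5 Mb held 20.6% and windows of 2 Mb 19.5%. Without regions under the 10th percentile in either library, chosen after seeing the data, 7.92% lay in 1222 clusters and dense windows held 19.8%. The densest window stayed within 1.5 times of 117 regions under each alternative run for it, and the 10 strongest regions were the same with each −log10 q, list length and overlap alternative. Of the 10 densest windows, 6 to 9 were the same. The cause of these shifts was not tested. With 2 libraries of unlike depth, every SD rests on a single difference.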
